A study of Homo sapiens with 8 samples.

Results

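Genes of the integrated stress response, 10 in all, were followed through mRNA and ribosome footprints in cells carrying a DNMT3A mutant and in cells carrying wild-type DNMT3A. The 10 genes, taken by name from a fixed list among 20453 gene IDs, were ATF4, ATF5, ATF3, DDIT3, CEBPB, CEBPG, TRIB3, CHAC1, PPP1R15A and PPP1R15B. All cells were THP-1 by their label, a human monocytic leukaemia line, and had been transduced with DNMT3A, a DNA methyltransferase that is often mutated in acute myeloid leukaemia. The mutant group had received a mutant form of the gene and the wild-type group its wild-type form. Each genotype had 2 mRNA libraries and 2 footprint libraries, 8 libraries in 4 groups. The vector, its promoter, the number of clones and any untransduced cells are not described in the sources used here, and nothing in the labels ties replicates to separate cultures. All p-values therefore measure the library-to-library spread, which may be a technical one.

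In the integrated stress response, kinases that sense amino acid shortage, misfolded protein, double-stranded RNA or lack of haem phosphorylate the translation initiation factor eIF2, which lowers protein synthesis in general. Some mRNAs with short upstream open reading frames, ATF4 among them, are then translated more, because ribosomes pass the upstream frames and start at the main one. ATF4 pairs with C/EBP proteins to switch on genes of amino acid supply, DDIT3, TRIB3, CHAC1 and PPP1R15A, and the PPP1R15 proteins close the loop by directing protein phosphatase 1 to eIF2.

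ATF4 and its C/EBP partners bind a composite element written here as TGATGNAA, and promoters of the 10 genes were searched for it on both strands. RefSeq promoter windows of build GRCh38.p14, running from 250 bases before to 50 bases after each annotated start, were available for all 10. The element was found for 4 of the 10 genes, against 4.46% of 27305 genes with a window. These 4 sites are shown because they match the element of ATF4, and the PPP1R15A site because it matches the cAMP response element TGACGTCA of CREB and ATF proteins. They are written 5′ to 3′ on the strand of the gene, with the matching letters in capitals.
PPP1R15B, chr1:204412026-204412055, minus strand: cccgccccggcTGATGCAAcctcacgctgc
ATF3, chr1:212565205-212565234, plus strand: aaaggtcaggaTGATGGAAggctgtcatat
CHAC1, chr15:40953251-40953280, plus strand: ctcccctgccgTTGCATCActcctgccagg
CEBPG, chr19:33374060-33374089, plus strand: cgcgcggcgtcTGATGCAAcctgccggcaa
PPP1R15A, chr19:48872352-48872381, plus strand: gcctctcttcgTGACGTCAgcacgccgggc

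The CHAC1 match lies on the opposite strand, so its capitals read as the reverse complement. The first matching base stood 227 bases before the PPP1R15B start, 191 before the first annotated ATF3 start, 209 before the CHAC1 start and 42 before the second annotated CEBPG start. The cAMP response element lay 58 bases before the PPP1R15A start and was held by 1 of the 10 genes and by 2.25% of all genes. The ER stress response element (ERSE), a longer motif, was found for 0 of the 10 and for 0.0916% of all genes. A match describes letters in a window and not bound protein.

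Total counts lay between 3415999 and 4523475 in the mRNA libraries, 944824 and 603360 in the mutant footprint libraries, and 1611724 and 1988513 in the wild-type footprint libraries. Replicate mRNA libraries differed by somewhat more than counting noise, with a chi-square per degree of freedom of 1.33 in mutant and 1.08 in wild-type cells, where counting alone gives 1. Replicate footprint libraries differed by no more than counting noise, at 0.925 in mutant (p for a spread below counting noise 4.29e-07) and 1.01 in wild-type cells. Each group holds a single pair, and only the mutant footprint pair lay below counting noise. The cause was not tested, and the libraries were kept as 2 replicates as labelled. DNMT3A mRNA stood at 240.9 and 244 counts per 1e6 counts (CPM) in mutant libraries, against 291 and 294 CPM in wild-type libraries, and these counts cannot tell introduced from resident copies of the gene. Of 13 monocyte and macrophage markers, 7 had no mRNA count in any library, CSF1R, S100A8, S100A9 and MPO among them. Only 3 reached 10 CPM (LYZ, CD68 and SPI1), so most markers of the labelled cell type were absent or low. All 10 erythroid markers and 3 of 4 epithelial markers reached 10 CPM, while CDH1 was at 0. The marker levels go against the monocytic label, and the identity of the cells was not tested. Summed erythroid marker mRNA ranged over 1736 to 1797 CPM in mutant and 2143 to 2196 CPM in wild-type libraries, and summed epithelial marker mRNA over 667 to 674 CPM and 820.7 to 843 CPM. Summed monocyte marker mRNA was 86.6 to 94.1 CPM in mutant and 92.2 to 99.99 CPM in wild-type libraries. The part of these shifts in the results below was not tested, and in bulk libraries fewer cells of a type and less RNA per cell cannot be told apart.

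The 10 genes did not move as a group. In mutant cells ATF5, DDIT3 and CEBPG mRNA rose, while CEBPB, CHAC1, ATF3, PPP1R15A and PPP1R15B mRNA fell and ATF4 and TRIB3 did not pass the test. In footprints, ATF5 and DDIT3 rose and ATF4 and CHAC1 fell. Relative to mRNA, ATF4 footprints fell, and none of the other 9 genes passed. The plot of levels by library shows these values on 1 axis per assay.

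**Figure D1:**
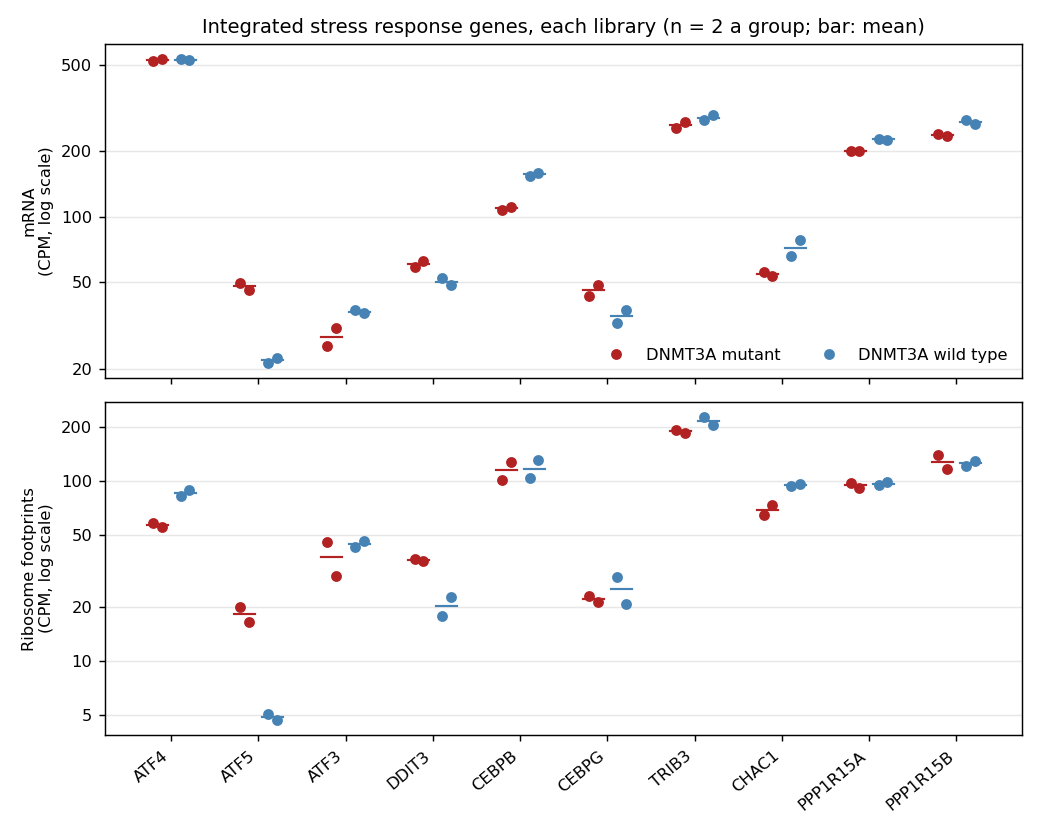
CPM of each of the 10 genes in every library on a log axis, mRNA in the upper and footprints in the lower panel, with mutant points left of wild-type points and a bar at each mean of 2 libraries. ATF5 lies higher in mutant cells in both panels, while ATF4 is level in mRNA and lower in mutant footprints.

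All 10 genes passed the low-count filter in both assays. The CPM unit expresses a gene's count per 1e6 counts of the genes kept, scaled by the TMM method within each assay. Genotypes were compared with edgeR's quasi-likelihood test on counts of all genes, and calls were made where the Benjamini-Hochberg adjusted p lay under 0.05. In mRNA 8 of the 10 were called, 3 higher and 5 lower, where 37.7% of 10756 genes were called, 18.9% in each direction. The median log2 fold change of the 10, mutant over wild type, was -0.14 against -0.0022 for all genes tested. Both mutant libraries lay outside both wild-type libraries for 9 of the 10, and for 67.8% of all genes. In footprints 4 of the 10 were called, 2 in each direction, where 21.2% of 9181 genes were called, 10.3% higher and 11% lower, and the median was -0.11 against 0.0055. Both mutant libraries lay outside both wild-type libraries for 5 of the 10 in footprints, and for 58.8% of all genes. Footprints per mRNA, tested as a genotype-by-assay interaction over 8 libraries, gave 1 called gene of 10, a lower one, where 4.11% of 9166 genes were called, 1.78% higher and 2.33% lower. Calls rest on a very small spread between replicates, and at an assumed coefficient of variation of 10% only ATF5 and CEBPB were called in mRNA, only ATF5 in footprints and no gene in footprints per mRNA, where 1 had an unadjusted p under 0.05. DESeq2 called ATF5 and CEBPB in mRNA, where it called 1313 of 6787 genes with an adjusted p. In footprints and per mRNA it gave no adjusted p for ATF5, ATF3, DDIT3 and CEBPG and called none of the other 6 genes, and 2 of the 10 had an unadjusted p under 0.05 in each.

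**Figure D2:**
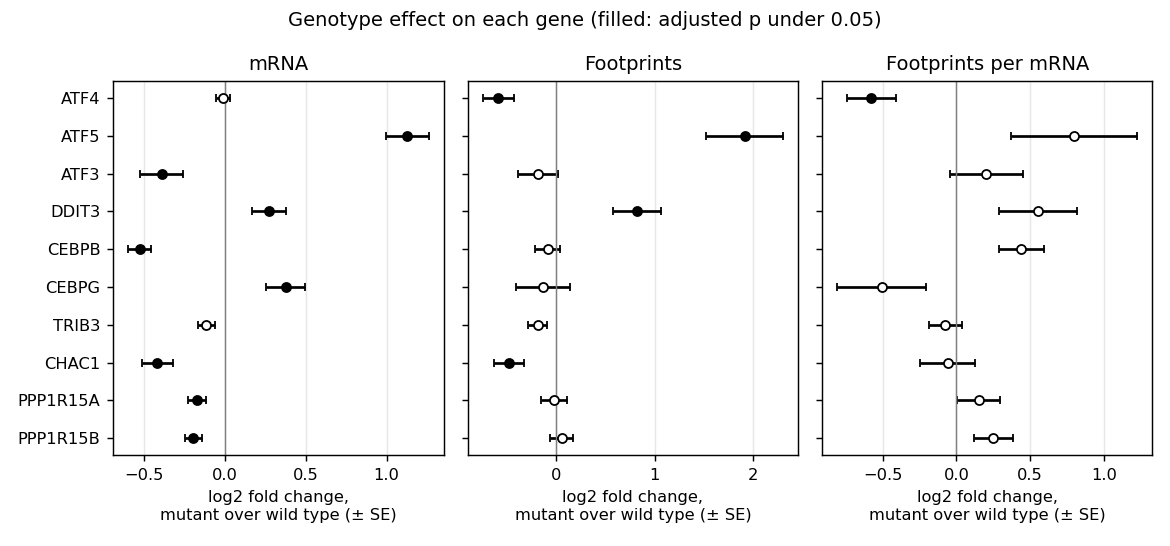
Log2 fold change, mutant over wild type, of the 10 genes in mRNA, footprints and footprints per mRNA, with bars of 1 SE and filled points at an adjusted p under 0.05. The ATF4 point sits at 0 in mRNA and at -0.58 in the other panels, and ATF5 lies farthest to the right in each panel.

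ATF4, the bZIP transcription factor at the centre of the response, kept its mRNA level while its footprints fell. The gene (ENSG00000128272, chr22:39520559-39522686) had mRNA levels of 520.3 and 531 CPM in mutant libraries, against 531 and 526 CPM in wild-type libraries. The groups overlapped, and the log2 fold change was -0.0078 with a 95% interval from -0.093 to 0.077 (edgeR, adjusted p = 0.908). ATF4 footprints stood at 58.6 and 55.8 CPM in mutant libraries, from 56 and 34 reads, against 82.5 and 89.5 CPM in wild-type libraries, from 130 and 173 reads. Both mutant footprint libraries lay below both wild-type ones, and footprints fell to 0.667 of wild type (log2 fold change -0.58, SE 0.16, edgeR adjusted p = 0.00407). Footprint CPM per mRNA CPM was 0.109 in mutant cells, ranging from 0.105 to 0.113 over the pairings of libraries, against 0.163 in wild-type cells, ranging from 0.155 to 0.170. The fall per mRNA was -0.58 on the log2 scale (SE 0.17, edgeR adjusted p = 0.0303). The footprint call was lost without mutant footprint replicate 1 (adjusted p = 0.133) or 2 (0.0653), and the call per mRNA without either of them (0.247 and 0.155) or wild-type footprint replicate 2 (0.152), with log2 values between -0.63 and -0.52 under all 15 alternatives. ATF4 has 4 annotated pseudogenes that can share its reads, and the counted feature is not stated, so footprints on its upstream frames and on its main frame cannot be told apart.

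ATF5, a relative of ATF4 that is also controlled by upstream reading frames and acts in the mitochondrial stress response, showed the largest rise of the 10 genes in both assays. The gene (ENSG00000169136, chr19:49928906-49933935) stood at 49.5 and 46.2 CPM in mutant mRNA, against 21.3 and 22.4 CPM in wild-type mRNA. Footprints stood at 19.9 and 16.4 CPM in mutant libraries, against 5.08 and 4.65 CPM in wild-type libraries. Mutant libraries were all above wild-type libraries in each assay. ATF5 mRNA rose 2.18-fold (edgeR log2 value 1.13, SE 0.13, adjusted p = 2.83e-15), and this call held under all 11 alternatives, with log2 values of 1.07 to 1.32. Its footprints rose 3.77-fold (edgeR log2 value 1.91, SE 0.39, adjusted p = 8.07e-05). These rest on 19 and 10 reads in mutant and 8 and 9 in wild-type libraries, and without mutant footprint replicate 1 the adjusted p was 0.115. Per mRNA the ATF5 difference was 0.80 on the log2 scale, with an interval from -0.042 to 1.64 (edgeR, adjusted p = 0.335). ATF5 shares 599 bases with NUP62, a nuclear pore gene that differed by 0.032 in mRNA (edgeR, adjusted p = 0.727) and by -0.15 in footprints (0.35), and with IL4I1, which had too few counts to test, at a mean of 0.480 CPM in mutant and 1.04 CPM in wild-type mRNA.

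**Figure D3:**
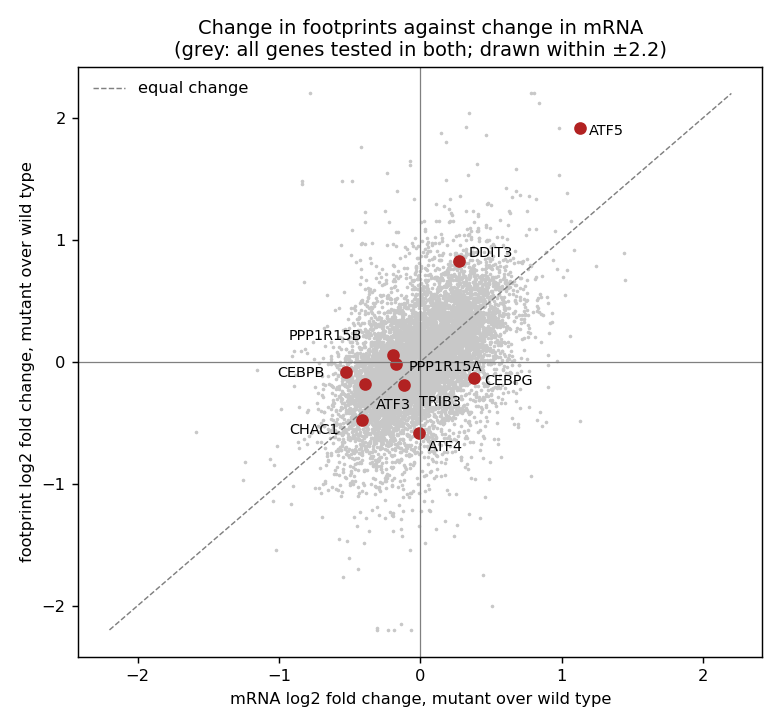
Footprint log2 fold change against mRNA log2 fold change, mutant over wild type in both, for the 10 genes over all genes tested in both assays (grey), with a dashed line where both change equally. ATF4 lies straight below the origin, ATF5 lies far up and right at 1.13 and 1.91, and CEBPB lies left at -0.52 in mRNA with footprints near 0.

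DDIT3, also called CHOP, is a C/EBP-family protein that is induced by ATF4 and promotes death of stressed cells. Its mRNA was 58.9 and 62.2 CPM in mutant libraries, against 52.0 and 48.4 CPM in wild-type libraries. Its footprints were 36.6 and 36.1 CPM in mutant libraries, against 17.8 and 22.8 CPM in wild-type libraries. All mutant values lay above all wild-type values in both assays, and the footprint difference was the larger. DDIT3 mRNA rose 1.21-fold (edgeR log2 value 0.27, SE 0.10, adjusted p = 0.0237) and DDIT3 footprints 1.77-fold (0.83, SE 0.24, adjusted p = 0.00811), from 35 and 22 reads in mutant and 28 and 44 in wild-type libraries. The difference per mRNA was 0.55 with an interval from 0.030 to 1.08, and did not pass after adjustment (edgeR, adjusted p = 0.265). Its mRNA missed the threshold without wild-type library 2 (adjusted p = 0.245) or mutant library 2 (0.0997), and the footprint call without mutant footprint replicate 1 (0.191), mutant 2 (0.0682) or wild-type 1 (0.0701). With the trend with gene density removed, the DDIT3 mRNA value was 0.44. DDIT3 (chr12:57516588-57520517) shares 65 bases with MARS1, a methionyl-tRNA synthetase whose mRNA log2 fold change was 0.13 (edgeR, adjusted p = 0.00445), and 2769 bases with LOC128125814, an annotated protein-coding locus.

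CEBPB, a C/EBP factor of myeloid cells and of inflammation, fell in mRNA and not detectably in footprints. CEBPB mRNA stood at 108 and 111 CPM in mutant libraries, against 153 and 159.6 CPM in wild-type libraries, and the groups did not overlap. Its footprints stood at 101.5 and 128 CPM in mutant libraries, against 104 and 131 CPM in wild-type libraries, and these overlapped. CEBPB mRNA fell to 0.695 of wild type (log2 fold change -0.52, SE 0.070, edgeR adjusted p = 3.48e-12) and stayed called under all 11 alternatives, with log2 values from -0.55 to -0.44. The footprint value was -0.084 (SE 0.13, edgeR adjusted p = 0.701), and turned positive without wild-type replicate 2 (0.10) or mutant replicate 1 (0.11). Per mRNA the difference was 0.44 (SE 0.15, edgeR adjusted p = 0.083), and it passed without wild-type footprint replicate 2 (0.63, adjusted p = 0.0165). CEBPB (chr20:50190583-50192690) shares 1487 bases with its antisense RNA CEBPB-AS1, whose reads cannot be told apart from its own without strand.

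CEBPG, which dimerises with ATF4, had mRNA of 43.0 and 48.7 CPM in mutant libraries, against 32.5 and 37.2 CPM in wild-type libraries. CEBPG footprints were 23.0 and 21.3 CPM in mutant libraries, against 29.2 and 20.7 CPM in wild-type libraries, from 13 to 46 reads each. The groups were apart in mRNA and overlapped in footprints. CEBPG mRNA rose 1.30-fold (edgeR log2 value 0.38, SE 0.12, adjusted p = 0.00659), while the footprint value was -0.13 (SE 0.27, adjusted p = 0.783) and the value per mRNA -0.51 (SE 0.30, adjusted p = 0.394). Its mRNA missed the threshold without wild-type mRNA library 1 (adjusted p = 0.11), without mutant mRNA library 2 (0.0915) and after removal of the trend with gene density (0.0657), and the footprint value was 0.11 without wild-type footprint replicate 1.

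ATF3, a bZIP repressor and early stress gene, had mRNA of 25.4 and 30.6 CPM in mutant libraries, against 37.3 and 35.9 CPM in wild-type libraries. Its footprints were 46.1 and 29.5 CPM in mutant libraries, against 43.1 and 46.5 CPM in wild-type libraries. Mutant mRNA lay below wild type, and in footprints the 2 mutant libraries lay on different sides of a wild-type library. ATF3 mRNA fell by 0.39 on the log2 scale (SE 0.13, edgeR adjusted p = 0.0128), and the footprint value was -0.18 with an interval from -0.58 to 0.22 (adjusted p = 0.57). The mRNA call was lost without mutant mRNA replicate 1 (-0.25, adjusted p = 0.255), wild-type 1 (0.0733) or wild-type 2 (0.0668), and the footprint value was 0.029 without mutant footprint replicate 2.

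CHAC1, an enzyme that degrades glutathione and a target of ATF4, ATF3 and DDIT3, fell in both assays. CHAC1 mRNA was 55.8 and 53.0 CPM in mutant libraries, against 65.6 and 78.2 CPM in wild-type libraries, and its footprints were 64.9 and 73.9 CPM in mutant libraries, against 93.9 and 96.2 CPM in wild-type libraries. No mutant library reached a wild-type one in either assay. CHAC1 mRNA fell to 0.750 of wild type (log2 fold change -0.42, SE 0.096, edgeR adjusted p = 0.000128) and its footprints to 0.719 (-0.48, SE 0.15, adjusted p = 0.014), with a difference per mRNA of -0.060 (SE 0.18, adjusted p = 0.909). The mRNA call was lost without the wild-type library 2, where the value was -0.26 (adjusted p = 0.133), and the footprint call without wild-type footprint replicate 2 (0.0635), mutant 1 (0.339) or mutant 2 (0.0541) and after removal of the trend with gene density (0.058). Per mRNA the value was 0.046 without wild-type mRNA replicate 1 and 0.049 without mutant footprint replicate 1.

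TRIB3, a pseudokinase that ATF4 and DDIT3 induce and that in turn restrains ATF4, had mRNA of 256 and 273 CPM in mutant libraries, against 279 and 292 CPM in wild-type libraries. TRIB3 footprints were 193 and 185 CPM in mutant libraries, against 228 and 206 CPM in wild-type libraries. Mutant values lay below wild-type values in both assays, yet neither difference passed the test. The TRIB3 log2 fold change was -0.11 in mRNA (SE 0.053, edgeR adjusted p = 0.0776), -0.19 in footprints (SE 0.098, adjusted p = 0.169) and -0.075 per mRNA (SE 0.11, adjusted p = 0.795). Its mRNA passed without mutant mRNA replicate 2 (-0.15, adjusted p = 0.0233) and after removal of the trend with gene density (-0.20, adjusted p = 0.000647).

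PPP1R15A, also called GADD34, is the stress-induced subunit that brings protein phosphatase 1 to eIF2, and PPP1R15B, or CReP, is its constitutive counterpart. PPP1R15A mRNA was 201.3 and 200.9 CPM in mutant libraries, against 227 and 226 CPM in wild-type libraries. PPP1R15B mRNA was 240.2 and 234 CPM in mutant libraries, against 278 and 266 CPM in wild-type libraries. In both genes each mutant mRNA library lay below each wild-type one, by a small margin, and PPP1R15A fell to 0.888 (log2 fold change -0.17, SE 0.058, edgeR adjusted p = 0.0108) and PPP1R15B to 0.875 of wild type (-0.19, SE 0.054, adjusted p = 0.00185). PPP1R15A footprints were 97.3 and 91.9 CPM in mutant libraries, against 94.5 and 98.3 CPM in wild-type libraries (log2 fold change -0.021, SE 0.14, edgeR adjusted p = 0.943). PPP1R15B footprints were 140.2 and 117 CPM in mutant libraries, against 122 and 129 CPM in wild-type libraries (0.056, SE 0.12, edgeR adjusted p = 0.791). Footprints of both genes overlapped between genotypes, and per mRNA the differences were 0.15 for PPP1R15A (SE 0.15, edgeR adjusted p = 0.665) and 0.25 for PPP1R15B, with an interval from -0.010 to 0.51 (adjusted p = 0.329). PPP1R15A has 75 gene starts within 500 kb, more than 94.9% of genes tested in mRNA, and after removal of the trend with gene density its values were 0.0093 in mRNA (adjusted p = 0.921) and 0.12 in footprints (0.582). Without wild-type mRNA replicate 1 the mRNA calls of PPP1R15A (adjusted p = 0.0887) and PPP1R15B (0.076) were lost, that of PPP1R15A also without wild-type 2 (0.113), and without single footprint libraries the footprint values changed sign, to 0.0061 (wild-type 2) and 0.0078 (mutant 2) for PPP1R15A and -0.11 (mutant 1) for PPP1R15B.

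Set against their own mRNA within each genotype, most of the 10 genes carried fewer footprints than the typical gene. In mutant cells 7 of the 10 were lower and 1 higher in footprints than in mRNA, where 59.3% of 9166 genes were called, 28.7% lower and 30.6% higher (edgeR). In wild-type cells 8 were lower and 1 higher, where 70.3% were called, 33.8% lower and 36.5% higher. The median log2 ratio of footprints to mRNA for the 10 was -0.79 in mutant cells, against 0.017 for all genes there, and -0.81 in wild-type cells, against 0.039. ATF4 had the lowest ratio of the 10 in both genotypes, -3.19 in mutant cells (adjusted p = 1.86e-41) and -2.61 in wild-type cells (2.88e-47), below all but 0.300% of genes in mutant and 0.518% in wild-type cells. The same libraries carry the genotype comparison above, so the ATF4 difference between genotypes is not a separate finding here.

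The next lowest ATF5 ratios were -1.37 in mutant cells (edgeR, adjusted p = 4.69e-07), at the 4.53 percentile of all genes, and -2.17 in wild-type cells (3.26e-10), at the 0.911 percentile. PPP1R15A stood at -1.08 in mutant and -1.23 in wild-type cells, PPP1R15B at -0.86 and -1.11, and DDIT3 at -0.73 and -1.28. CEBPG stood at -1.03 in mutant and -0.52 in wild-type cells, the wild-type call being lost without wild-type footprint replicate 2 (-0.25, edgeR adjusted p = 0.331) or wild-type mRNA replicate 2 (0.0683), and TRIB3 at -0.48 and -0.40.

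CEBPB lay near the middle of all genes in mutant cells and below it in wild-type cells, while CHAC1 and ATF3 lay above the middle in both. CEBPB had a ratio of 0.038 in mutant cells (edgeR, adjusted p = 0.803), at the 51.0 percentile, and of -0.40 in wild-type cells (2.48e-05), at the 30.3 percentile. Its mutant value was -0.12 without mutant footprint replicate 2, and its wild-type value -0.25 without wild-type footprint replicate 1. CHAC1 had 0.33 in mutant (adjusted p = 0.066) and 0.39 in wild-type cells (0.000587). ATF3 had 0.51 in mutant (adjusted p = 0.0331) and 0.30 in wild-type cells (0.0555), and its mutant call was lost without mutant footprint replicate 1 (0.070, adjusted p = 0.891) or mutant mRNA replicate 1 (0.38, 0.139), while its wild-type value passed without mutant mRNA replicate 1 (0.0431) or 2 (0.0442). The ratios are scaled within each assay, are not corrected for the length of coding or untranslated sequence, and do not give ribosomes per molecule.

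**Figure D4:**
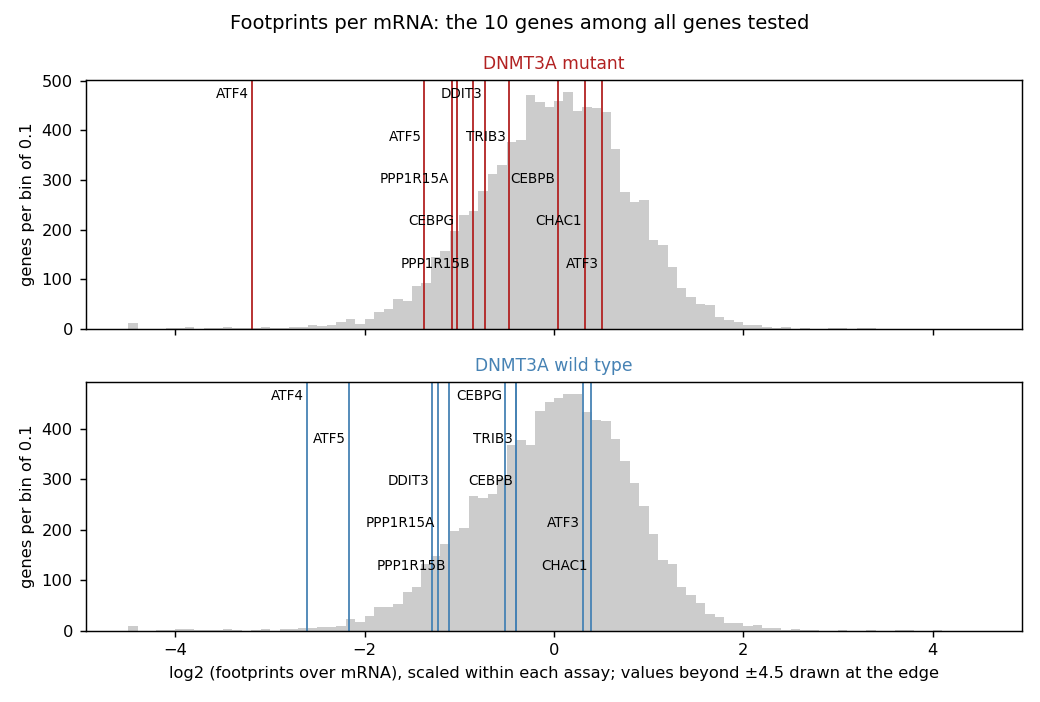
Histogram of the log2 ratio of footprints to mRNA over all genes tested (grey), mutant above and wild type below, with a line for each of the 10 genes. ATF4 stands in the far left tail of both panels, at -3.19 in mutant and -2.61 in wild-type cells, and ATF3 and CHAC1 lie right of the middle.

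Other genes of the pathway were read from 7 lists. Counts in these lists are to be read against the 37.7% of all genes called in mRNA (18.9% in each direction), 21.2% in footprints and 4.11% per mRNA, and their medians against -0.0022, 0.0055 and 0.0046. Among 9 eIF2 kinases and their sensors, 5 rose and 1 fell in mRNA, 2 rose and 2 fell in footprints, and 1 fell per mRNA. The list medians were 0.29 in mRNA and 0.30 in footprints. EIF2AK1, the kinase that senses haem and mitochondrial stress, had mRNA of 385 and 392 CPM in mutant libraries, against 349 and 356 CPM in wild-type libraries. Its footprints were 271 and 317 CPM in mutant libraries, against 378 and 370.3 CPM in wild-type libraries. EIF2AK1 thus lay above wild type in mRNA and below it in footprints, with a log2 fold change of 0.14 in mRNA (edgeR, adjusted p = 0.0136), -0.37 in footprints (0.00023) and -0.51 per mRNA (7.77e-05). GCN1, which activates the amino acid sensor EIF2AK4, fell in mRNA (-0.33, edgeR adjusted p = 3.17e-13) and footprints (-0.22, 0.0161). EIF2AK2, which senses double-stranded RNA, rose in mRNA (0.41, edgeR adjusted p = 0.00542), and OMA1, a mitochondrial protease, rose in footprints (0.61, 0.0194). DNAJC3, an inhibitor of the kinases, rose in mRNA (0.44, edgeR adjusted p = 0.000309) and narrowly in footprints (0.40, 0.0492), a call lost with RLE scaling of the libraries (0.0502). EIF2AK3 was at 0.29 (edgeR, adjusted p = 0.109) and EIF2AK4 at 0.17 (0.0748) in mRNA, short of the threshold. No gene of this list was called in mRNA or footprints at an assumed coefficient of variation of 10%, where 4 and 2 had an unadjusted p under 0.05. The EIF2AK1 calls were lost without mutant footprint replicate 1 (0.24 in footprints, 0.0994 per mRNA) and, in mRNA, without either wild-type library (0.152 and 0.1) or the density trend (0.12), and that of EIF2AK2 without wild-type mRNA 2 (0.0503) or mutant mRNA 1 (0.152). In footprints, the OMA1 and DNAJC3 calls were lost without any 1 of the 4 libraries (0.0614 to 0.211 and 0.0707 to 0.542), and that of GCN1 without wild-type 2 (0.158), mutant 1 (0.133) or mutant 2 (0.204).

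Among 8 subunits of eIF2 and of its exchange factor eIF2B, 3 rose and 0 fell in mRNA, where 37.7% of all genes were called, and the 3 were the eIF2 subunits EIF2S1, EIF2S2 and EIF2S3, at log2 fold changes of 0.28, 0.24 and 0.35 (edgeR, adjusted p = 0.00651, 0.000935 and 5.08e-15). In footprints EIF2B3 rose (0.29, edgeR adjusted p = 0.0304), and per mRNA 0 passed, with 1 at an unadjusted p under 0.05 and none called with DESeq2. The catalytic subunits of protein phosphatase 1 moved apart in both assays. PPP1CC rose in mRNA and footprints (0.37 and 0.45), PPP1CB likewise (0.35 and 0.41), and PPP1CA fell in both (-0.25 and -0.41, edgeR adjusted p = 2.5e-06 and 5.8e-07). After removal of the trend with gene density PPP1CA lost its mRNA call (-0.11, adjusted p = 0.0562), and the EIF2S3 mRNA value was 0.22. With the paralogs TRIB1, TRIB2 and CHAC2 and the TRIB partner COP1, a ubiquitin ligase, that list of 7 had 3 higher and 3 lower in mRNA, and 3 higher and 1 lower in footprints. Calls lost without a single library were those of EIF2S1 (0.183 without wild-type mRNA 2, 0.114 without mutant mRNA 1), EIF2S2 (0.116 without wild-type mRNA 2), EIF2B3 (0.118, 0.374 and 0.108 without wild-type 1, mutant 1 and mutant 2) and PPP1CB footprints (0.191 without mutant 1).

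Of 24 tested bZIP partners and other C/EBP proteins, 6 rose and 5 fell in mRNA, where 18.9% of all genes were called in each direction, with a median of -0.047. JUND and MAFG fell in both assays, JUND by 0.53 in mRNA (edgeR, adjusted p = 7.44e-31) and MAFG by 0.61 (0.000265), while CREB1 rose in mRNA by 0.77 (1.98e-05). JUN, an AP-1 subunit, fell by 1.02 in footprints (edgeR, adjusted p = 3.58e-06) and by 0.70 per mRNA (0.0262). Of 20 in footprints, 4 rose and 3 fell. Calls lost without a single library were those of CREB1 (0.0513 without wild-type mRNA 2), JUND footprints (0.1 without mutant 1), MAFG footprints (0.136 and 0.0603 without mutant 1 and 2) and JUN per mRNA (0.0886, 0.198 and 0.157 without wild-type footprint 2, mutant 1 and mutant 2).

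Target genes of ATF4 and DDIT3 in amino acid supply split evenly, 7 higher and 7 lower of 20 in mRNA, where 18.9% of all genes were called in each direction, 7 and 5 in footprints (10.3% and 11%), and 1 and 1 per mRNA (1.78% and 2.33%). Their medians were -0.037 in mRNA and -0.077 in footprints, against -0.0022 and 0.0055 for all genes. ASNS, asparagine synthetase, rose in mRNA and footprints (0.46 and 0.33), as did ALDH1L2, a mitochondrial folate enzyme (1.08 and 0.92). The amino acid transporters SLC1A5 and SLC3A2 fell in mRNA (-0.32 each; SLC3A2 -0.15 after removal of the trend with gene density), and the folate enzyme MTHFD2 fell in footprints (-0.34) and per mRNA (-0.51, edgeR adjusted p = 2.41e-08). Targets in stress and growth had 4 higher and 7 lower of 18 in mRNA and 5 and 4 of 17 in footprints, with medians of -0.14 and 0.14. DDIT4, an inhibitor of mTORC1, fell in mRNA and footprints (-0.47 and -0.49), as did the secreted factor GDF15 (-0.40 and -0.44), while CCPG1, an autophagy receptor of the endoplasmic reticulum, rose in mRNA (0.68). XPOT, a tRNA exporter, rose in mRNA, in footprints and per mRNA (0.36, 0.83 and 0.47), and the autophagy gene MAP1LC3B fell in footprints (-0.96) and per mRNA (-1.06, edgeR adjusted p = 5.45e-05). Without mutant footprint replicate 1, the footprint calls of ALDH1L2 (adjusted p = 0.0533) and MAP1LC3B (0.054) and the XPOT call per mRNA (0.0982) were lost.

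Of 8 tested other mRNAs known for upstream reading frames, 4 rose and 1 fell in mRNA, where 18.9% of all genes were called in each direction. Of 7 tested, 2 rose in footprints and 2 per mRNA, where 10.3% and 1.78% of all genes were called higher. The footprint ratio to mRNA was called lower for 5 of these 7 in each genotype, with medians of -1.10 in mutant and -1.03 in wild-type cells, where 28.7% and 33.8% of all genes were called lower. For the 20 amino acid supply targets it was called higher in 17 in mutant and 18 in wild-type cells, with medians of 0.81 and 0.79, where 30.6% and 36.5% of all genes were called higher. SLC35A4, which carries its upstream frames in a bicistronic mRNA, fell in mRNA (-0.31, edgeR adjusted p = 4.23e-06, and -0.14 after removal of the trend with gene density) and rose per mRNA (0.53, 0.0479). EPRS1, a tRNA synthetase, rose in mRNA and footprints (0.44 and 0.38). PNRC2, whose footprints stood at 12.6 and 11.5 CPM in mutant libraries against 2.54 and 4.14 CPM in wild-type libraries, rose by 1.80 in footprints (edgeR, adjusted p = 0.0024) and by 1.64 per mRNA (0.0466), and without mutant footprint replicate 1 both calls were lost (0.202 and 0.353), as they were without mutant footprint replicate 2 (0.0567 and 0.126). The PNRC2 call per mRNA was also lost without 4 of the other libraries (0.0581 to 0.2), the SLC35A4 call without 7 of the 8 (0.0676 to 0.449), and the EPRS1 footprint call without mutant 1 (0.0753). At an assumed coefficient of variation of 10%, the lists other than the kinases kept 0 to 2 called genes each in mRNA and 0 to 3 in footprints.

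**Figure D5:**
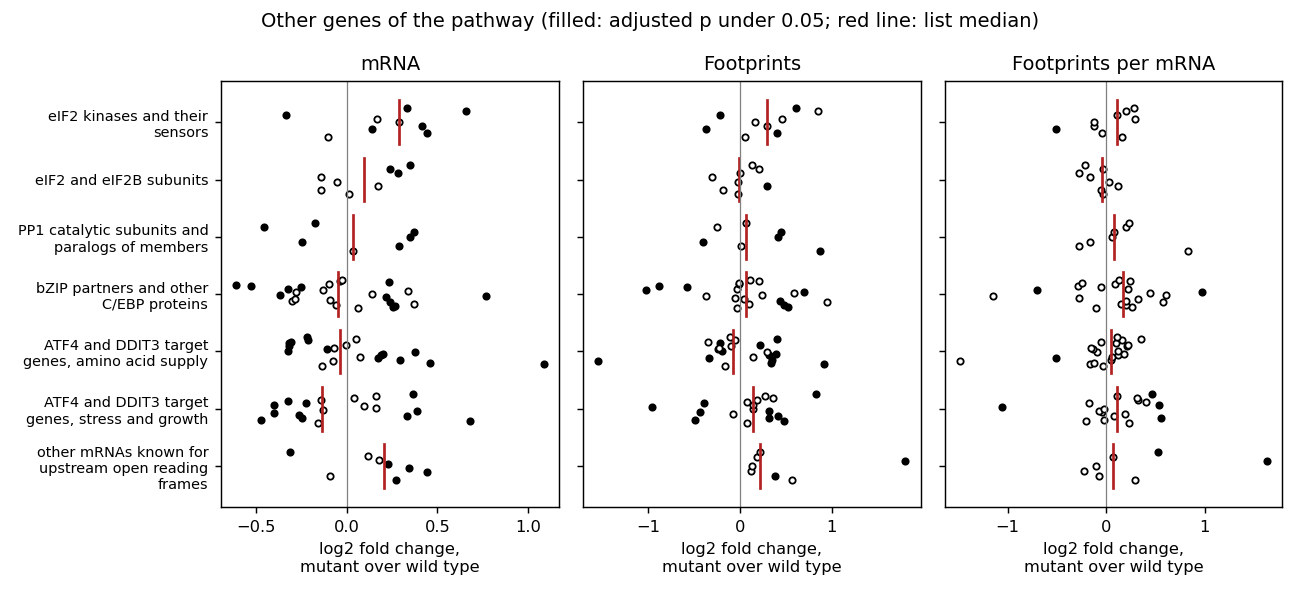
Log2 fold change, mutant over wild type, of each tested gene of the 7 pathway lists in mRNA, footprints and footprints per mRNA, filled where the adjusted p was under 0.05, with a red line at each list median. The lists hold filled points on both sides of 0 in mRNA, except the eIF2 and eIF2B subunits, whose 3 filled points lie right of 0.

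Genes with the composite element in a promoter window were compared with all genes that had a window. In mRNA 50 of 218 were higher and 27 lower, 35.3% called, against 1698 higher and 1670 lower of 8847 genes, 38.1% called. In footprints 32 of 189 were higher and 16 lower, 25.4% called, against 782 higher and 823 lower of 7602, 21.1% called. Per mRNA 4 of 186 were higher and 7 lower, 5.91% called, against 132 higher and 178 lower of 7589, 4.08% called. Their median log2 fold changes were 0.044 in mRNA, 0.039 in footprints and -0.023 per mRNA, against 0.0049, 0.0038 and 0.0033. Among the 4 genes of the response that hold the element, CEBPG mRNA rose and ATF3, CHAC1 and PPP1R15B mRNA fell.

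Likeness to ATF4 and ATF5 was measured as the distance between log2 fold changes in mRNA and footprints, over 3068 well-counted genes and 8 libraries. SRSF10, FXYD5 and TNFAIP8 lay nearest to ATF4, at distances of 0.023, 0.024 and 0.031, with footprint log2 fold changes of -0.59, -0.57 and -0.56. The ATF4 footprint value has an SE of 0.16, larger than these distances, so the data do not resolve which genes lie nearest. Among these well-counted genes none lay close to ATF5, whose nearest were PRSS2, TOP2B and USO1 at 1.19, 1.24 and 1.30. Candidates averaging under 100 counts in either assay had been left out, while ATF5 itself had only 8 to 19 footprint reads per library. Genes with as few footprint reads as ATF5 were thus not compared, so the distances cannot show whether ATF5 stands alone. Reads of PRSS2 may be shared with near-identical copies.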

How the data were processed

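RNA-seq and ribosome profiling libraries of transduced cells labelled THP-1, 8 in all, were grouped by genotype and assay from the sample labels. Per the labels' protocols, mRNA came from TRIzol-extracted RNA copied with oligo(dT), and footprints from RNase I digestion, size selection and ribosomal RNA depletion. The deposited values are whole-number counts per Ensembl gene ID, not normalized by the authors. Tools listed in the submitters' processing notes are STAR, Bowtie2, featureCounts, Trimmomatic and cutadapt, with the builds GRCh38 and hg38. Their roles and versions, the annotation, the strand setting and the counted feature were not given in the sources used here. Of 20453 IDs, 19827 matched a symbol in the reference tables.

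For testing, R 4.3.3 and edgeR 4.0.16 were used on the counts (glmQLFit with legacy set to FALSE, glmQLFTest), with TMM factors within each assay and filterByExpr to choose genes. Footprints per mRNA were the interaction of genotype and assay over 8 libraries. P-values were adjusted by Benjamini-Hochberg over all genes tested in each comparison, with a threshold of 0.05. An interval is the log2 value with a confidence level of 95%, from its SE. The procedure was also run on simulated counts drawn with a small spread between libraries. Such a run cannot show how calls fare under a larger spread between cultures. Alternatives were RLE scaling, no filter, DESeq2 1.42.0, an assumed coefficient of variation of 10%, the legacy setting, each library left out, the replicate number as a block, and removal per library of the trend with gene starts within 500 kb. With a library left out, the lone one of its group was taken to vary like the rest. The same alternatives were run for the pathway lists and their named genes, a choice made after the data were seen. The common coefficient of variation was estimated at 2.25% in mRNA and 1.92% in footprints. A count of 3 corresponds to 0.673 to 0.887 CPM in mRNA and 1.55 to 4.92 CPM in footprints, which covers counting error only.

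All 10 genes were named whatever their values. From each pathway list up to 4 called genes with the smallest p per comparison could be named, and the 3 nearest genes of ATF4 and ATF5. EIF2AK3 and EIF2AK4 were added after their values were seen. The genes and lists were chosen with earlier results of these data known. Coordinates and promoter sequences are RefSeq's for GRCh38.p14.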

Additional observations from a re-analysis of the deposited data

Results flagged for a closer look

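The genotype effect in footprints differed from that in mRNA, by the interaction test of edgeR, for 12 of the 57 genes named by rule, all of which were tested in footprints per mRNA. The naming rule took in every list gene called in this comparison. The share of 21.1% follows from that rule and cannot be compared with the 4.11% of all genes. Values are the log2 fold change, mutant over wild type, in footprints minus that in mRNA. Among the regulators, ATF4 stood at -0.58 and EIF2AK1 at -0.51. JUN stood at -0.70 and FOSL1, another AP-1 subunit, at 0.97. The FOSL1 value rests on 28 and 24 footprint reads in mutant and 34 and 38 in wild-type libraries. Its call was lost without a filter on low counts and after removal of the trend with gene density. Among targets, MAP1LC3B stood at -1.06 and MTHFD2 at -0.51, while XPOT was at 0.47, SESN2 at 0.54, EIF4EBP1 at 0.56 and SLC1A5 at 0.21. SESN2 footprints stood at 172 and 236 CPM in mutant libraries, on both sides of the 180 and 178 CPM in wild-type libraries. The SESN2 value per mRNA ranged from 0.34 to 0.80 over the 15 alternatives. Among other mRNAs with upstream frames, PNRC2 stood at 1.64 and SLC35A4 at 0.53. Without mutant footprint replicate 1, MTHFD2, MAP1LC3B and SESN2 stayed called and the other 9 did not. None of the 12 was called at an assumed coefficient of variation of 10%, and the lowest adjusted p there was that of MAP1LC3B, 0.0997.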

How the results depend on the processing

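With DESeq2, calls numbered 1313 of 6787 genes with an adjusted p (2 of the 10) in mRNA. They numbered 367 of 3633 (0 of the 10) in footprints and 134 of 4546 (0) per mRNA. At an assumed coefficient of variation of 10%, calls numbered 313 of 10756 genes (2 of the 10), 288 of 9181 (1) and 13 of 9166 (0). Where none of the 10 was called, unadjusted p was under 0.05 for 2 with DESeq2 in each assay comparison, 1 per mRNA at 10%, and 2 to 3 without a mutant footprint library. Leaving out single libraries gave 2281 to 3839 genes (4 to 7 of the 10) in mRNA, 273 to 1807 (0 to 3) in footprints and 136 to 446 (0 to 1) per mRNA. In footprints against mRNA with all 8 libraries kept, 7 of the 10 were called lower in mutant and 7 to 8 in wild-type cells. Over these settings 2095 to 3158 genes were called lower in mutant and 2521 to 3703 in wild-type cells, of 9166 to 12563 tested. Replicates with the same number did not deviate together (correlations 0.0194 to 0.0562). Replicate differences lay near counting noise, which would hide a shared deviation, so this cannot decide whether the numbers pair libraries. The replicate block gave 4168 (8), 2074 (4) and 600 (2) calls, and it brought CEBPB past the threshold per mRNA (adjusted p = 0.0329). Higher calls made up 48.4% of footprint calls, against 31.1% with DESeq2, and 43.2% of calls per mRNA, against 27.2% without a filter. Values that changed sign were small: ATF4 mRNA was 0.0031 without a filter, 0.017 without the density trend and -0.016 to 0.0080 without single libraries. PPP1R15A was 0.0093 in mRNA and 0.12 in footprints without that trend, and 0.0061 and 0.0078 in footprints without wild-type 2 and mutant 2. Without single libraries, footprint values ranged over -0.073 to 0.0078 for PPP1R15A, -0.39 to 0.11 for CEBPG, -0.23 to 0.11 for CEBPB (0.10 without wild-type 2), -0.11 to 0.15 for PPP1R15B and -0.61 to 0.029 for ATF3. Values per mRNA ranged over -0.21 to 0.049 for CHAC1 (0.046 without wild-type mRNA 1) and -0.22 to 0.42 for ATF3, and the mutant ratio of CEBPB over -0.12 to 0.22. The cause was not tested. DESeq2 gave no adjusted p for ATF5, ATF3, DDIT3 and CEBPG in footprints and per mRNA, so its counts of 0 cover the other 6 genes. Few footprint reads limit precision, as for ATF5 with 19 and 10 in mutant and 8 and 9 in wild-type libraries.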
